A study of Bos taurus with 6 samples.

Results

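The cytosolic and mitochondrial chaperones and their cochaperones were taken as 49 named genes of the HSP70, HSP110, HSP90, HSP60, HSP40 (J protein) and BAG families, together with HSP90 cochaperones and 2 heat shock factors. All 49 were found by symbol among the 23015 rows of the count tables. The list was read for 1 question, namely which genes follow HSPA1A in the comparison of high with low NFMP, the number of fine marbling particles, and which stay level. The 2 heat shock factors (HSF1 and HSF2) are transcription factors and not chaperones, and HSPA13 is known as a protein of microsomes, so the name of the list does not describe these 3 members.

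The study compared longissimus thoracis (LT) muscle of Hanwoo, the native cattle of Korea, between steers with a high and a low number of fine marbling particles, the small flecks of intramuscular fat seen on a cut surface. Reads were sequenced near the 3′ ends of mRNA and counted per gene. The high-NFMP group held 3 Hanwoo steers, 3-8, 10-8 and 10-9, aged 32.5, 33.8 and 34.5 months. The low-NFMP group held 3 Hanwoo steers, 3-1, 3-3 and 10-16, aged 37.8, 33.7 and 35.4 months. All 6 steers were raised in the conventional manner on commercial feed, and each gave 1 library. Total counts per library were 16283873, 16530745 and 16798460 for the high-NFMP group, and 17179629, 16791858 and 17192750 for the low-NFMP group, in the order of the names above. This order is kept for all values per steer.

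Chaperones of the HSP70 family bind unfolded stretches of proteins and release them in a cycle driven by ATP. J proteins bring clients and start ATP hydrolysis, and nucleotide exchange factors, such as HSP110 and several BAG proteins, let the client go. HSP90 with its own cochaperones takes over clients that are nearly folded. Heat shock factor 1 switches on the inducible members when unfolded proteins gather, and in muscle several of these proteins are known for looking after the contractile filaments.

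High and low NFMP were compared by the quasi-likelihood test of edgeR, and p-values were adjusted by Benjamini-Hochberg over 15039 tested rows. A filter on low counts removed 2 members, HSPA2 (between 1 and 7 raw counts per library) and HSPA13 (between 2 and 18), and 47 were tested. At an adjusted p below 0.05, 2 of the 47 fell in the high-NFMP group, HSPA1A and DNAJB1, where 0.166% of all tested rows were called. None rose at that threshold by edgeR, against 0.519% of all rows, and none did by DESeq2, while limma called 0 rows of the whole table in either direction. At the threshold of the study, a fold change above 2 at an unadjusted p below 0.05, 4 members were lower (HSPA1A, HSPA6, DNAJA1 and DNAJB1) and 0 were higher, beside 1.36% and 2.53% of all rows. At an unadjusted p below 0.05 alone, 10 of 47 (21.3%) were lower, against 5.74% of all rows, and 1 (2.13%) was higher, against 5.73%. These counts take in HSPA1A, the reference of the question, and HSPA6, which passed the filter through the low-NFMP group. Over the 45 other tested members, 1 was lower at the adjusted p, 2 (4.44%) at the threshold of the study and 8 (17.8%) at the unadjusted p. The 1 was DNAJB1, and the 2 were DNAJA1 and DNAJB1. The paper had reported both as lower from these same data before the list was made. Their counts therefore restate known calls, and the 8 take in both genes.

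A member was said to follow HSPA1A where it was lower at an unadjusted p below 0.05 and every high-NFMP steer lay below every low-NFMP steer in normalized counts, that is, after scaling each library to the mean of their effective sizes. Every high-NFMP steer lay below every low-NFMP steer in 12 of 47 members (25.5%) and in 9.16% of all rows. The opposite order was seen in CDC37 and TRAP1, and its share of all rows is not given. With HSPA1A itself, 10 members (21.3%) met the whole rule, against 4.78% of all rows. These were HSPA1A, HSPA6, HSPA8, HSPA14, HSPA4, HSPH1, DNAJA1, DNAJB1, DNAJB4 and DNAJC2. Without HSPA1A and HSPA6, 8 of 45 members (17.8%) met the rule, DNAJA1 and DNAJB1 among them. A member was called level where the 95% interval of its log2 fold change lay within a 1.5-fold change in either direction, and 17 members (36.2%) were level, against 16.5% of all rows. This count was 3 with age as a term, 8 after quantile normalization and 11 with library totals, where 2.55%, 10.1% and 14.0% of all rows were level. It was 6 without steer 10-8, 7 without 3-1, 7 without 3-3 and 8 without 10-16, beside 10.7%, 7.05%, 6.82% and 6.87% of all rows. The level calls given for single genes hold for the fit with all 6 steers. The members were counted more often than most genes, with a median of 953 normalized counts against 144 over all tested rows. Among the 1987 rows at or above that member median, 45.4% were level and 4.58% met the rule for following. The level share of the members takes in members below that median, so it is not matched to these rows. It is not read as a result about the members. The other 20 members met neither rule. The families held between 2 and 15 tested members, too few to read their counts against the shares of all rows, so counts by family are a description. The median log2 fold change was -0.08 over the members and 0.02 over all tested rows, and 29 of 47 members (61.7%) had a negative value, against 48.1% of all rows.

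**Figure D1:**
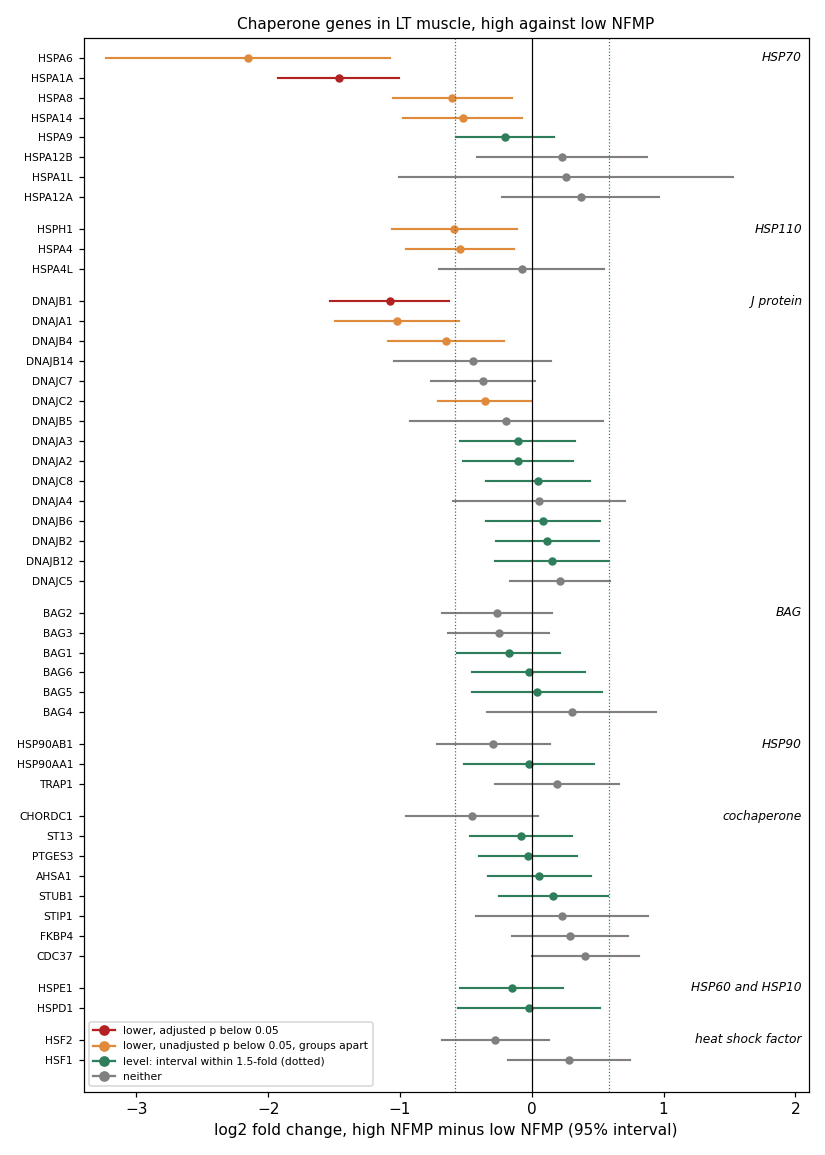
Log2 fold change (high minus low NFMP) of the 47 tested chaperone genes, sorted within families, with points for the estimate of edgeR and bars for its 95% interval over 3 steers per group. Dotted lines mark a 1.5-fold change, and the 10 followers belong to the HSP70, HSP110 and J protein families.

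HSPA1A, the stress-inducible cytosolic HSP70, had 4473, 3184 and 4267 normalized counts in the high-NFMP steers and 10734, 13307 and 8873 in the low-NFMP steers. The groups did not overlap, and the low-NFMP steers were spread more widely than the high-NFMP steers. On the log2 scale it fell by 1.46 (standard error 0.21), at an adjusted p of 0.00635 by edgeR, which is 2.76-fold more in the low-NFMP group with a 95% interval from 2.01 to 3.79. It held between 0.0173% and 0.0271% of all counts in the high-NFMP steers and between 0.0511% and 0.0856% in the low-NFMP steers. The adjusted p stayed below 0.05 whichever steer was left out, with a largest value of 0.0424, and over all alternatives it ranged from 2.85e-08 to 0.162, the largest being after quantile normalization with limma. In whole muscle, fewer cells of a type and less RNA per cell cannot be told apart.

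HSPA6, a strictly inducible HSP70, was counted rarely, with 7.09, 5.56 and 20.1 normalized counts in the high-NFMP steers and 59.3, 37.9 and 50.5 in the low-NFMP steers. The groups did not overlap, and the rarity leaves a wide interval. Its log2 fold change was -2.15 (95% interval -3.23 to -1.07), and the adjusted p of 0.0771 by edgeR missed the threshold, which was passed without a filter (0.0106), with DESeq2 (0.00814) and without steer 10-9 (0.0329), in a range up to 0.394 over the alternatives. Steers 3-8 and 10-8 had only 7 and 5 raw counts, so this gene passed the filter through the low-NFMP group, where it is higher, and its place among the followers is no support for the list.

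HSPA8, the constitutive HSP70 that serves in everyday folding and in the uncoating of vesicles, had 6323, 5049 and 8258 normalized counts in the high-NFMP steers and 9092, 11102.5 and 9606 in the low-NFMP steers. All high-NFMP steers lay below all low-NFMP steers, but steer 10-9 came close to steer 3-1. The estimate was a log2 fold change of -0.60 (95% interval -1.05 to -0.15) at an adjusted p of 0.274 by edgeR. Without steer 10-8 it was -0.41 and without steer 3-3 it was -0.52, at unadjusted p of 0.0910 and 0.0520 by edgeR, so the rule was no longer met. HSPA14, which works with DNAJC2 at the ribosome, had 173, 161 and 198 normalized counts against 259, 242 and 263. That is a clear gap between the groups at a low count, with a log2 fold change of -0.52 and an adjusted p of 0.355 by edgeR. Leaving out steer 10-8, 3-1 or 10-16 brought its unadjusted p to 0.0947, 0.0661 or 0.0889 by edgeR.

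The other 4 tested HSP70 genes did not meet the rule for following. HSPA9, the mitochondrial HSP70, was level, with 909, 836 and 787 normalized counts against 977, 900.4 and 1044, and a log2 fold change of -0.21 (95% interval -0.58 to 0.17). HSPA12A and HSPA12B, distant relatives of the family, had log2 fold changes of 0.37 and 0.23 with intervals too wide to be called level. HSPA1L, the neighbour of HSPA1A on chromosome 23, was near the filter, with 5 to 17 raw counts per library, and its log2 fold change of 0.26 had a standard error of 0.59.

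HSPA4 and HSPH1 are HSP110 proteins, large relatives of HSP70 that act as its nucleotide exchange factors. HSPA4 had 2015, 1438 and 2167 normalized counts in the high-NFMP steers and 2845, 2717 and 2644 in the low-NFMP steers. The low-NFMP steers lay close together, and steer 10-8 stood lowest. Its log2 fold change was -0.55 (95% interval -0.96 to -0.14), with an adjusted p of 0.277 by edgeR. HSPH1 had 1091, 616 and 1025 normalized counts against 1521, 1138 and 1445. Steer 10-8 was again the lowest, and the gap between the groups was narrow, from 1091 to 1138. The log2 fold change was -0.59 with an adjusted p of 0.323 by edgeR. Without steer 10-8 the estimates of HSPA4 and HSPH1 were -0.35 and -0.34, at unadjusted p of 0.0862 and 0.116 by edgeR. HSPH1 also lost an unadjusted p below 0.05 without steer 3-1 (0.0642) or 10-16 (0.0692). The related HSPA4L, known best from testis, had a log2 fold change of -0.07 (95% interval -0.70 to 0.55) and was neither a follower nor level.

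Among the 15 J proteins, 4 followed, 6 were level and 5 were neither. DNAJB1, the main heat-inducible partner of HSPA1A, had 416, 449 and 621 normalized counts in the high-NFMP steers and 1181, 851 and 1109.5 in the low-NFMP steers. There was no overlap, and steers 10-9 and 3-3 came nearest to each other. In edgeR it fell by 1.08 on the log2 scale with a standard error of 0.21 and an adjusted p of 0.0301. The adjusted p was below 0.05 without steer 10-9 (0.0223), while without any other steer it was between 0.0663 and 0.153, and with age as a term it was 0.334. Over all alternatives it ranged from 0.000848 to 0.334. The log2 fold change remained negative, which the separation of the groups largely fixes beforehand.

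DNAJA1, a farnesylated J protein of the cytosol, had 217, 143 and 182 normalized counts in the high-NFMP steers and 389, 320.2 and 392 in the low-NFMP steers. The 2 groups were well separated. With a log2 fold change of -1.02 (95% interval -1.49 to -0.55) it passed the threshold of the study, and its adjusted p of 0.0505 by edgeR was just above 0.05, with a range from 0.00385 (DESeq2) to 0.327 (age as a term) over the alternatives. DNAJB4, a close relative of DNAJB1 found in muscle and heart, had 982, 685 and 770.2 normalized counts against 1471, 1353 and 1000.5. Steers 3-8 and 10-16 nearly met. The log2 fold change was -0.65 (95% interval -1.09 to -0.21, adjusted p = 0.220 by edgeR). DNAJC2, which assists HSPA14 at the ribosome, had 1221, 1204 and 1268 normalized counts against 1524, 1567 and 1639, with little spread inside either group. Its log2 fold change was the smallest among the followers, -0.36, at an unadjusted p of 0.0489 by edgeR. With any 1 steer left out this p was above 0.05, the largest being 0.168 without steer 10-16. Among all 14 alternatives it was below 0.05 in 2. These were library totals (0.0275 by edgeR) and the first number of the steer name as a term (0.0440 by edgeR).

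The 11 other J proteins had log2 fold changes between -0.45 (DNAJB14) and 0.21 (DNAJC5), and their smallest adjusted p was 0.468 by edgeR. DNAJC7, which binds HSP70 and HSP90 at once, was lower in every high-NFMP than in every low-NFMP steer, but its unadjusted p was 0.0629 by edgeR. The level J proteins were DNAJA2, DNAJA3, DNAJB2, DNAJB6, DNAJB12 and DNAJC8. DNAJA2 is the sister of DNAJA1 and had 633, 557 and 649.9 normalized counts in the high-NFMP steers and 614, 805 and 559 in the low-NFMP steers, with overlap and a log2 fold change of -0.10 (95% interval -0.52 to 0.31). DNAJB6, a J protein of the Z-disc known for holding back aggregation, had a log2 fold change of 0.08 (95% interval -0.35 to 0.51). DNAJA4 and DNAJB5 varied widely between steers of the same group, with DNAJB5 between 1786.5 and 4346 normalized counts inside the low-NFMP group, and could be called neither level nor different.

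**Figure D2:**
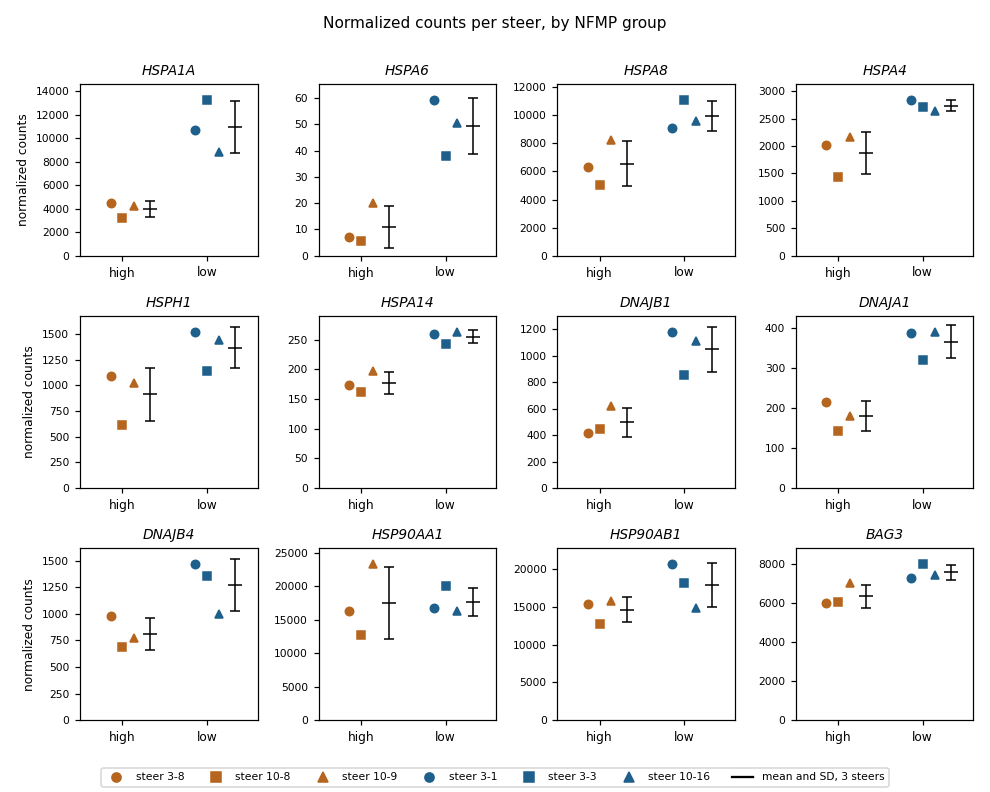
Normalized counts (scaled to a common effective library size, axes from 0) of 12 chaperone genes in each of the 6 steers, with a bar for the mean and SD of the 3 steers in a group. In the first 9 panels every high-NFMP steer lies below every low-NFMP steer, whereas the groups overlap for HSP90AA1 and HSP90AB1.

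Of the 3 HSP90 genes, 0 met the rule for following and 1 was level. HSP90AA1, the inducible cytosolic HSP90, had 16213, 12751 and 23298 normalized counts in the high-NFMP steers and 16691, 20041 and 16242 in the low-NFMP steers. Both the lowest and the highest steer belonged to the high-NFMP group. The log2 fold change was -0.02 (95% interval -0.51 to 0.47), which met the rule for level, and its sign depended on the steers included, from -0.27 to 0.20. HSP90AB1, the constitutive form, had 15397, 12716 and 15778 normalized counts against 20693, 18114 and 14917. Steer 10-16 lay among the high-NFMP steers, and the log2 fold change of -0.29 (95% interval -0.72 to 0.14) was neither level nor below the threshold (adjusted p = 0.624 by edgeR). Thus HSP90AA1 and DNAJB1, both textbook targets of heat shock factor 1, had log2 fold changes of -0.02 and -1.08 in the same libraries, and the difference between them was not tested.

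Of the 8 HSP70 and HSP90 cochaperones, 0 followed and 4 were level. ST13, which steadies the ADP-bound form of HSP70, had 3711, 3842 and 4705 normalized counts in the high-NFMP steers and 4558, 4033 and 4356 in the low-NFMP steers, with overlapping groups and a log2 fold change of -0.08 (95% interval -0.47 to 0.31). AHSA1, the activator of the HSP90 ATPase, was level at 0.06, PTGES3 (p23) at -0.03 and the ubiquitin ligase STUB1 at 0.16. CDC37, which loads kinases onto HSP90, was the only member with an unadjusted p below 0.05 in the other direction. It had 1380.2, 1521 and 2034 normalized counts against 1202, 1178 and 1344, so that every high-NFMP steer lay above every low-NFMP steer by a narrow margin. Its log2 fold change was 0.41 at an unadjusted p of 0.0498 by edgeR, and without steer 10-9 it was 0.24 at 0.205. Without steer 3-1, 3-3 or 10-16 its unadjusted p was 0.13, 0.134 or 0.0522. STIP1, the adaptor that joins HSP70 to HSP90, had 2001 normalized counts in steer 10-9, beside 806 and 988 in the other high-NFMP steers, and a log2 fold change of 0.23 that ranged from -0.25 to 0.47 with a steer left out. FKBP4, an immunophilin that moves steroid receptors, was at 0.29, and CHORDC1, an HSP90 partner, was at -0.45 (95% interval -0.95 to 0.05).

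Several BAG proteins release ADP from HSP70. Of the 6 BAG members 0 followed and 3 were level. BAG3, which joins with HSPA8 in the turnover of damaged filament proteins in muscle, was the most counted of them, with 5988, 6058 and 7041 normalized counts in the high-NFMP steers and 7298, 8008 and 7420.4 in the low-NFMP steers. Every high-NFMP steer lay below every low-NFMP steer, but the log2 fold change of -0.25 (95% interval -0.63 to 0.13) had an unadjusted p of 0.181 by edgeR. BAG1, BAG5 and BAG6 were level, at -0.18, 0.04 and -0.02. BAG2 (-0.26) and BAG4 (0.30) had intervals that went beyond a 1.5-fold change.

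Of the 5 mitochondrial members, 4 were level in the fit with all steers. HSPD1 and HSPE1, the HSP60 and HSP10 of the mitochondrial folding chamber, are next to each other on chromosome 2. HSPD1 had 612, 451 and 862 normalized counts in the high-NFMP steers and 770.3, 708 and 473 in the low-NFMP steers. The groups overlapped almost fully, with a log2 fold change of -0.02 (95% interval -0.56 to 0.52) that ranged from -0.28 to 0.22 with a steer left out. For HSPE1 the values were 1185, 1327 and 1644 against 1449, 1677 and 1492 normalized counts. These overlapped as well, with a log2 fold change of -0.15 (95% interval -0.54 to 0.24). DNAJA3, the J protein of HSPA9, was at -0.11 and level, and TRAP1, the mitochondrial HSP90, was at 0.19 (95% interval -0.28 to 0.66). For TRAP1 every high-NFMP steer lay above every low-NFMP steer, but steers 10-8 and 10-16 nearly met, at 167.8 and 167.6 normalized counts. Over the 5 genes, the log2 fold changes lay between -0.21 and 0.19.

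HSF1, the factor that drives the inducible genes, had 1193, 2171 and 1834 normalized counts in the high-NFMP steers and 1312, 1370.5 and 1591 in the low-NFMP steers. Steer 3-8 was the lowest of all 6 steers and the other high-NFMP steers were the highest. The log2 fold change was 0.28 (95% interval -0.18 to 0.74), and without steer 3-8 it was 0.49 at an unadjusted p of 0.0185 by edgeR. HSF1 overlaps DGAT1, an enzyme of triglyceride synthesis, and the counts of these 2 genes agreed within 1.90% in all 6 libraries, so the reads of HSF1 and DGAT1 cannot be told apart. HSF2 had a log2 fold change of -0.28 (95% interval -0.68 to 0.13). mRNA counts give no measure of the activity of either factor.

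Ratios of counts within a library, not divided by length, do not depend on its scaling. The ratio of HSPA1A to HSPA8 counts was 0.707, 0.631 and 0.517 in the high-NFMP steers and 1.18, 1.20 and 0.924 in the low-NFMP steers. The groups did not overlap, which restates the fold changes of HSPA1A and HSPA8. Of DNAJB1 to HSPA8 the ratios overlapped, at 0.0659, 0.0889 and 0.0752 against 0.130, 0.0767 and 0.116. The ratio of HSPA8 to HSP90AA1 was 0.390, 0.396 and 0.354 against 0.545, 0.554 and 0.591, also without overlap. Steer 10-9 had the highest counts of both HSPA8 and HSP90AA1 in its group, but its ratio lay with those of the other high-NFMP steers. Against HSP90AB1, the ratio of HSPA8 overlapped between the groups, at 0.411, 0.397 and 0.523 against 0.439, 0.613 and 0.644. For HSP90AA1 to HSP90AB1 the ratios overlapped, at 1.05, 1.00 and 1.48 against 0.807, 1.11 and 1.09. DNAJB1 to DNAJA2 was 0.658, 0.806 and 0.955 against 1.92, 1.06 and 1.98, again without overlap. In all, 8 ratios were computed. They were chosen with the fold changes known, and an exact permutation of 3 against 3 steers cannot reach a p below 0.1, so they are given as a description with no test. The remaining ones were HSPA1A to HSP90AA1, at 0.276, 0.250 and 0.183 against 0.643, 0.664 and 0.546, and HSPD1 to HSPE1, which overlapped.

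Single steers were lowest or highest for different shares of the members. Steer 10-8 had the lowest value for 20 of 47 members (42.6%), against 20.0% of all tested rows, and steer 3-8 for 12 (25.5%), against 14.9%. By the rule, a follower is always lowest in a high-NFMP steer. Among the members that did not follow, 10-8 and 3-8 were each lowest for 11. Without steer 10-8, 5 members met the rule for following, HSPA1A, HSPA6, DNAJA1, DNAJB1 and DNAJB4, where 4.12% of all rows did. Without HSPA1A and HSPA6 these are 3 of 45 (6.67%). Steer 10-9 had the highest value for 13 members (27.7%), against 20.4% of all rows. Among the high-NFMP steers, 10-8 was the lowest for 9 of the 10 followers, HSPA1A included, and for DNAJB1 it was 3-8. The matching share of all rows that met the rule is not given, so this is no result about the members. Over both groups, between 2 and 5 of 6 within-group pairs of steers (median 3) had the same order in a follower as in HSPA1A, and the median over all tested rows was also 3. The first number of the steer name splits the steers into 3-8 against 3-1 and 3-3, and 10-8 and 10-9 against 10-16, and the sources used here do not say what it marks. Within the first set the mean log2 difference of HSPA1A was -1.42 and within the second -1.27. With age as a term in the fit, 6 members met the rule, beside 2.85% of all rows. Without HSPA1A and HSPA6 these were 4 of 45 (8.89%), again with DNAJA1 and DNAJB1. HSPA4, HSPA14, HSPH1 and DNAJC2 no longer met the rule, at unadjusted p of 0.0634, 0.121, 0.138 and 0.126 by edgeR. The ages of the groups overlapped, and their part in the result was not tested beyond this fit.

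Some markers of other cells differed between the groups at an unadjusted p below 0.05. Over all tested rows, 5.74% were lower and 5.73% higher at that p. Of 8 adipocyte markers, 4 (CIDEC, ADIPOQ, PLIN4 and CIDEA) were higher in the high-NFMP group at an unadjusted p below 0.05 and 0 at an adjusted p below 0.05 by edgeR. Their summed normalized counts were 11989, 6912 and 5155 in the high-NFMP steers and 5432, 6187 and 4877 in the low-NFMP steers, with PLIN4 the most counted and steer 3-8 apart from the rest. CIDEC, ADIPOQ and CIDEA were higher in every high-NFMP than in every low-NFMP steer, and the share of all rows in this order is not given. For ADIPOQ steers 10-8 and 3-3 nearly met, at 961 and 947 normalized counts. CIDEA had 89.2, 82.2 and 75.2 against 58.4, 43.5 and 50.5 normalized counts. The groups overlapped for PLIN1, FABP4, LEP, PLIN4 and LPL, at log2 fold changes of 0.72, 0.61, 0.47, 0.47 and 0.06, and LPL was level. The 7 skeletal muscle markers, led by TTN, were present in every library and 0 had an unadjusted p below 0.05. The 8 slow fibre markers (most counted MYL2) had a median log2 fold change of 0.05 and overlapping sums of 162175, 254128 and 202669 against 174703, 174625 and 224266. Among them MYL3 alone passed an unadjusted p of 0.05 and was lower (0.00253 by edgeR), whereas MYH7 had a log2 fold change of 0.32. Of 8 fast fibre markers (most counted MYH1, median 0.07) 0 passed. Of 6 fibroblast markers, PDGFRA was lower (-0.51) at an unadjusted p of 0.0391 by edgeR. The 6 had a median log2 fold change of 0.20, with DCN at 0.31, LUM at 0.59, COL1A1 at 0.23, COL3A1 at 0.16 and COL1A2 at -0.14. Summed counts of the 6, led by DCN, were 12581, 15264.5 and 12086 against 9458, 11970.5 and 12467. Of 6 immune markers 5 were tested, with a median log2 fold change of 0.27 and sums of 384, 367 and 337 against 277, 345 and 246 led by PTPRC. ITGAM was lower at an unadjusted p of 0.0361, while CSF1R (0.73) and CD14 (0.57) had positive log2 fold changes at unadjusted p of 0.0541 and 0.0712 by edgeR. For 5 endothelial markers (led by PECAM1) 0 passed. Of 4 red blood cell markers only ALAS2, the most counted, was tested, and it did not pass. No listed marker was at 0 in all libraries, and their part in the result was not tested.

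Further chaperones outside the 49 were read from 6 lists, in which 0 genes had an adjusted p below 0.05 by edgeR. At an unadjusted p below 0.05, 5.74% of all tested rows were lower and 5.73% higher, so single genes passing in these lists are a description. The 14 subunits of the TRiC chaperonin and prefoldin, which fold actin and tubulin, had a median log2 fold change of 0.01, with 1 gene lower at an unadjusted p below 0.05 (VBP1, -0.47). Of 15 further HSP90 cochaperones, 1 was lower at an unadjusted p below 0.05, FKBP5, an immunophilin induced by glucocorticoids. FKBP5 had 9917, 10110.4 and 7322 normalized counts in the high-NFMP steers and 11111, 13408 and 16958 in the low-NFMP steers. The groups did not overlap, and the log2 fold change was -0.60 (adjusted p = 0.292 by edgeR). Among 26 tested further HSP70 cochaperones and J proteins, DNAJC12 was lower (-0.63) and DNAJC6, the auxilin that works with HSPA8 on clathrin coats, was higher (1.07), both at an unadjusted p below 0.05. Of 13 ER chaperones 1 was lower at an unadjusted p below 0.05, HSP90B1 at -0.75 (adjusted p = 0.296 by edgeR), while HSPA5 was level at -0.10. For HSP90B1 the groups overlapped, with 1090 normalized counts in high-NFMP steer 3-8 and 988 in low-NFMP steer 10-16. None of 7 small heat shock proteins passed an unadjusted p of 0.05, the smallest p being that of HSPB7 (0.54 on the log2 scale), and the abundant CRYAB and HSPB1 had log2 fold changes of -0.12 and 0.06. The same held for 12 regulators of the heat shock factors and other known HSF1 targets, where MT2A had the smallest p at a log2 fold change of -1.01 (95% interval -2.67 to 0.65).

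Several members share reads or positions with other genes. In RefSeq genes of the assembly ARS-UCD2.0, all 49 members were matched by symbol and all were protein-coding, and 16 overlapped another gene. RefSeq gives HSPA1B and HSPA2 as other names of HSPA1A, and reads with multiple alignments were counted, so counts of HSPA1A may take in its near-identical copies. STUB1 overlaps JMJD8, and their counts agreed within 0.389% in all 6 libraries, so the level value of STUB1 belongs to either gene. SMU1, a splicing factor next to DNAJA1, had a log2 fold change of -1.01 (unadjusted p = 0.00661 by edgeR), close to that of DNAJA1, and whether they share reads was not tested.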

How the data were processed

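RNA sequencing counts of LT muscle from 6 Hanwoo steers were analysed, 3 per NFMP group by their labels. The authors deposited raw read counts per gene symbol, made from a 3′ mRNA library. The methods name Tophat2 with HTSeq and also Bowtie2, and the submitters' processing notes name Bowtie2 and bedtools. The sources used here do not say which of these made the counts or whether strand was used. With edgeR 4.0.16 (R 4.3.3), its filter at default settings (minimum count 10, minimum total 15) kept 15039 of 23015 rows, and 176 extra rows of repeated symbols were tested separately. TMM factors lay between 0.915 and 1.08, dispersions were estimated robustly (biological coefficient of variation 25.1%), and high was tested against low NFMP by quasi-likelihood, adjusted over all tested rows. Intervals used the t quantile on the total degrees of freedom. No source names molecular identifiers, so reads may not be independent molecules, and a gene of about 10 counts carries a large error. Genes given per steer were those at an unadjusted p below 0.05, those named by the paper, the 6 most counted members and a few inducible or constitutive partners. HSPA9, DNAJA2, STIP1, DNAJB5, DNAJC6, HSPA5, CRYAB, HSPB1 and SMU1 and the ratios were chosen after their values were seen. The members and lists were chosen with earlier results of these data known. The fit was repeated without a filter, with a minimum of 10 counts per library, with RLE factors, with unscaled totals, with DESeq2 1.42.0, with limma 3.58.1 after quantile normalization, with age or the first number of the steer name added to the model, and leaving out each steer in turn. Promoter sequences were not analysed here.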

Additional observations from a re-analysis of the deposited data

How the results depend on the processing

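Over the 14 alternatives that refit the counts, the log2 fold changes of the 10 followers were negative in every fit that tested them. HSPA6 was not tested with at least 10 counts in every library. The rule for following had already set every high-NFMP steer below every low-NFMP steer. The negative sign therefore follows largely from the rule and is no further support. In these fits HSPA1A, HSPA6, DNAJA1, DNAJB1 and DNAJB4 kept an unadjusted p below 0.05. Of the values of 18 named members, 204 kept direction and side of that p, 36 no longer passed it, 1 newly passed and 10 changed sign. Members lower at an adjusted p below 0.05 numbered 4 without a filter and with DESeq2, 1 with age as a term, and 1 to 3 with a steer left out. After quantile normalization with limma they numbered 0. At an unadjusted p below 0.05 that fit had 8 lower members, beside 5.89% of all rows. Rows of the whole table called in either direction numbered 103 in the main fit, 240 without a filter and 291 with DESeq2. They numbered 0 with limma, 31 with age and 28 to 82 with a steer left out. Past the p and fold change threshold were 2 with age and 2 to 4 with a steer left out. The shares of all rows past it in these fits are not given, so these counts are no result about the members. Lower at an unadjusted p were 5 to 12 with a steer left out, 5 being without 10-8 and 12 without 3-8. In these 2 fits 4.28% and 8.29% of all rows were lower. Higher were 0 without a filter, with RLE size factors, library totals, DESeq2, quantile normalization, the first number of the steer name or age, and 0 to 2 with a steer left out. For the higher direction too, the shares of all rows in these fits are not given. Followers numbered 6 with age (2.85% of all rows) and 5 to 12 with a steer left out. The 5 were without steer 10-8 and the 12 without 3-8, where 4.12% and 8.09% of all rows met the rule. These counts take in HSPA1A and HSPA6. Level members numbered 11 with library totals, 8 after quantile normalization, 3 with age, 6 to 12 with a steer left out (fewer samples widen the intervals), 0 when the limit was set at a 25% increase or its inverse, and 38 at a 2-fold limit. The shares of all rows at these changed limits are not given, so the counts at them are no result about the members. The members' median moved by less than its spread over steers (0.0781). Over all 47 tested members, the sign changed in at least 1 alternative for 17, of which 11 were level and 0 followers. Level members lie near 0 and followers are separated by their rule, so this split follows from the rules and is no result. Among the named members the sign changed for HSP90AA1 (-0.27 to 0.20 with a steer left out), HSPD1 (0.10 with the first number, 0.12 with age, -0.28 to 0.22 with a steer left out) and ST13 (0.0501 with age). For the other changes the cause was not tested. The labels do not say that the first number of the steer name pairs steers. With it as a term, 2 members were lower at an adjusted p below 0.05 and 10 followed, beside 3.80% of all rows that met the rule for following.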
